A study of Mus musculus with 11 samples.

Results

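NF-κB is a family of dimeric transcription factors, and the 10 genes described here encode its subunits and proteins that act on it. The members were taken by gene symbol from the deposited table, where all 10 were among the 14604 genes listed and all 10 passed the filter on low values (a mean log2(n + 1) of at least 0.5) that left 13897 genes. Tregs, the CD4+ T cells that restrain immune responses, had been sorted as live CD4+GITR+CD25+ cells from MC38 tumors (TI-Tregs) and from spleens of the same mice, and RNA-seq had been run on them. MC38 is a mouse colon adenocarcinoma line grown as a graft. The 11 libraries comprised 3 of spleen and 3 of tumor from CD177flox/flox mice, written here as WT, and 3 of spleen and 2 of tumor from CD177flox/flox/FOXP3-CreYFP mice, written here as KO. All mice carried the floxed alleles and a tumor. The KO mice also carried a Cre-YFP driven by Foxp3, which acts in Foxp3-expressing cells, while the WT mice carried no Cre, so the deletion and the Cre-YFP itself cannot be told apart. The table has no row for Cd177, so it gives no check of the genotype labels. The methods give an age range for mice that received MC38 grafts in general, but none for these genotypes, and do not say whether same-numbered libraries came from 1 mouse. The p-values therefore measure the spread between these libraries.

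The NF-κB family has 5 subunits. Nfkb1 and Nfkb2 encode the precursors p105 and p100, which are processed to the DNA-binding subunits p50 and p52, while Rel, Rela and Relb encode c-Rel, p65 and RelB, which carry transactivation domains. In resting cells IκB proteins such as IκBα (Nfkbia) and IκBε (Nfkbie) hold the dimers in the cytoplasm until the IKK complex marks them for degradation, and Nfkbia is itself a target of NF-κB, which closes a feedback loop. Tnfaip3 encodes the ubiquitin-editing enzyme A20, which dampens signaling upstream of IKK, Bcl3 encodes a nuclear IκB protein that binds p50 and p52 dimers, and Traf1 encodes an adaptor of TNF receptor family members. c-Rel is known for its part in the development of Foxp3+ Tregs, and Treg cells receive NF-κB signals through the antigen receptor, CD28 and GITR.

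Because several of these genes are known targets of NF-κB, the promoters of the members that the comparison turns on are shown first. RefSeq windows on GRCm38.p6, from 250 bases before to 50 bases after the annotated start, were found for 8 of the 10 members, in 11 windows. Nfkb1 and Relb were not matched. The windows below belong to the 4 members that were higher in tumor under every alternative tried in the pooled comparison of tissues (Nfkbia, Nfkbie, Nfkb2 and Rel) and to Tnfaip3, which did not pass the test. Each runs 5′ to 3′ on the strand of its gene, at chr12:55492598-55492897 (minus strand) for Nfkbia, chr17:45555450-45555749 (plus strand) for Nfkbie, chr19:46304487-46304786 (plus strand, the first of 3 windows) for Nfkb2, chr11:23770920-23771219 (minus strand) for Rel and chr10:19015361-19015660 (minus strand, the first of 2 windows) for Tnfaip3. Capitals mark every match, on either strand, to the NF-kappaB consensus of 10 bases, which reads in words as 3 G, a purine, any base, an A or T, 2 pyrimidines and 2 C.
Nfkbia: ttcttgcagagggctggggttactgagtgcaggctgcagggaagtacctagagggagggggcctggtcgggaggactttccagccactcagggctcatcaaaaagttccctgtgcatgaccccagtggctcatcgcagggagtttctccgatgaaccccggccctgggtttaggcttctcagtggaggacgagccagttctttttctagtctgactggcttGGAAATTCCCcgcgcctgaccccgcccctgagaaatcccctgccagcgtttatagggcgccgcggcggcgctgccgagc
Nfkbie: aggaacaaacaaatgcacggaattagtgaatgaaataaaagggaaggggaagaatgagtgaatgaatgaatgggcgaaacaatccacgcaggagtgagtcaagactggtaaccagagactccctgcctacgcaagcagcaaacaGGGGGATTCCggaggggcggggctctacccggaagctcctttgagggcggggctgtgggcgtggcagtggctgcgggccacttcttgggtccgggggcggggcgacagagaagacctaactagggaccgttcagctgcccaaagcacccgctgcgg
Nfkb2: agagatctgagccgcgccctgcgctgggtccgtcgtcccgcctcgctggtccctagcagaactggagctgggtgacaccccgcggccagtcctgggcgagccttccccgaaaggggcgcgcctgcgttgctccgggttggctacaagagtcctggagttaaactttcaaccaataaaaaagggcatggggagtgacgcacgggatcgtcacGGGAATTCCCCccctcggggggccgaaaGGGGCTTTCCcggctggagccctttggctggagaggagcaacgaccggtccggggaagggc
Rel: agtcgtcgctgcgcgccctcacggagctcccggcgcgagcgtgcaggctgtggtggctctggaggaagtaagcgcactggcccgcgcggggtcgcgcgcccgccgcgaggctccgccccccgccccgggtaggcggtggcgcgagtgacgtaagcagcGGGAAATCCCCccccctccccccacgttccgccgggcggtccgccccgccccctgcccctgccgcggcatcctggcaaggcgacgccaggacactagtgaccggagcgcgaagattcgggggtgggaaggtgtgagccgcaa
Tnfaip3: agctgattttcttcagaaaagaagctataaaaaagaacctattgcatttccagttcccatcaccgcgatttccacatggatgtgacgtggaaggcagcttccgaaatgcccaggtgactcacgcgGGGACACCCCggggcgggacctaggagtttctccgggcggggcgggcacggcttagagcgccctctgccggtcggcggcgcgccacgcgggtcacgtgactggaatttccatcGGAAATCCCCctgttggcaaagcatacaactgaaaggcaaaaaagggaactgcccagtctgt

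The match in the Nfkbia window lay from 29 to 20 bases before the start, and that of Nfkbie from 106 to 97 bases before it. Nfkb2 had overlapping matches from 39 to 29 bases and a further one from 11 to 2 bases before the start, and Rel had overlapping matches from 92 to 82 bases before it. Tnfaip3 had a match from 125 to 116 bases and another from 12 to 3 bases before the start. Bcl3 held 1 match just after its start, whereas the windows of Rela and Traf1 held none. In all, 6 of the 8 matched members and 8 of their 11 windows held the consensus, against 1388 of 27025 genes (5.14%) and 4.51% of all 32851 windows. The windows are not independent, since all 3 of Nfkb2 held a match and its windows 2 and 3 share a site. The members were picked as NF-κB genes, several of them known targets, so the comparison with all genes is not a test. A match describes the letters only, and binding was not measured. Members with a match included both genes that were higher in tumor and Tnfaip3, which was not called.

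The table holds log2(n + 1), where n is an estimated count summed by gene symbol. The totals of n ran from 712832 to 844331 in spleen and from 1103159 to 1304548 in tumor libraries, and the scaling of n is not described. A single symbol, Gm12896, held 31.4% to 42.4% of n in spleen and 31.4% to 41.3% in tumor libraries. The methods give only an approximate number of reads for all libraries, far above these totals, so the reads behind a single value are not known. The labelled cell type was checked against marker genes. Foxp3, which defines Tregs, was present in all libraries. Its log2 means were 6.35 ± 0.30 over the 6 spleen and 5.50 ± 0.55 over the 5 tumor libraries (SD). It was called lower in tumor (-0.85; limma adjusted p = 0.0036). Of 8 genes of Treg identity and of the sort, Foxp3, Ikzf2, Ptprc, Cd4 and Cd3e were lower in tumor. Tnfrsf18 and Ctla4 were higher, and Il2ra did not pass. With libraries centred on the T-cell lineage genes, 3 of the 8 were higher and 1 lower. Of 20 T-cell lineage genes, 17 were lower and 0 higher in tumor, with summed n of 4926 to 5383 in spleen and 2255 to 4118 in tumor. All 18 myeloid markers were higher in tumor by a median of 4.84, with summed n of 178 to 441 in spleen and 10457 to 15125 in tumor. The 5 listed of 9 fibroblast markers were also all higher, at 2.69 to 4.42 in spleen and 588 to 1314 in tumor. Of 10 markers of CD8 T and NK cells, 7 were higher and 1 lower (48.9 to 87.9 and 173 to 575), and of 7 listed B-cell markers 6 were lower and 0 higher (176 to 387 and 27.8 to 77.6). In such bulk samples fewer cells of a type and less RNA per cell cannot be told apart. NF-κB genes are used by myeloid cells and fibroblasts as well as by T cells, and the part of these transcripts in each tumor-spleen difference below was not tested.

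Which of the NF-κB genes differed between the tumor and the spleen libraries was asked first. Of the 10 members, 7 were higher in tumor and 0 lower by limma with Benjamini-Hochberg adjustment over all genes, where the direction of Rela turned with quantile normalization and those of Rela and Relb turned with equal library totals. The inhibitors Nfkbia and Nfkbie rose most, by 4.05-fold and 3.11-fold, followed by Nfkb2 (2.34-fold), Rel (2.01-fold), Bcl3 (1.92-fold), Relb (1.39-fold) and Rela (1.18-fold). Nfkb1, Tnfaip3 and Traf1 did not pass the test. The background was high, since 78.9% of all genes tested were called in either direction and 43.1% were called higher. The median difference was 0.71 on the log2 scale over the members and 0.082 over all genes. For 6 members, Nfkb2, Rel, Relb, Nfkbia, Nfkbie and Bcl3, every tumor library lay above every spleen library, which held for 35.2% of all genes. Rescaling moved the median of all genes to -0.16 (quantile normalization), -0.14 (median centring), -0.44 (equal library totals) and 0.86 (centring on the T-cell lineage genes).

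**Figure D1:**
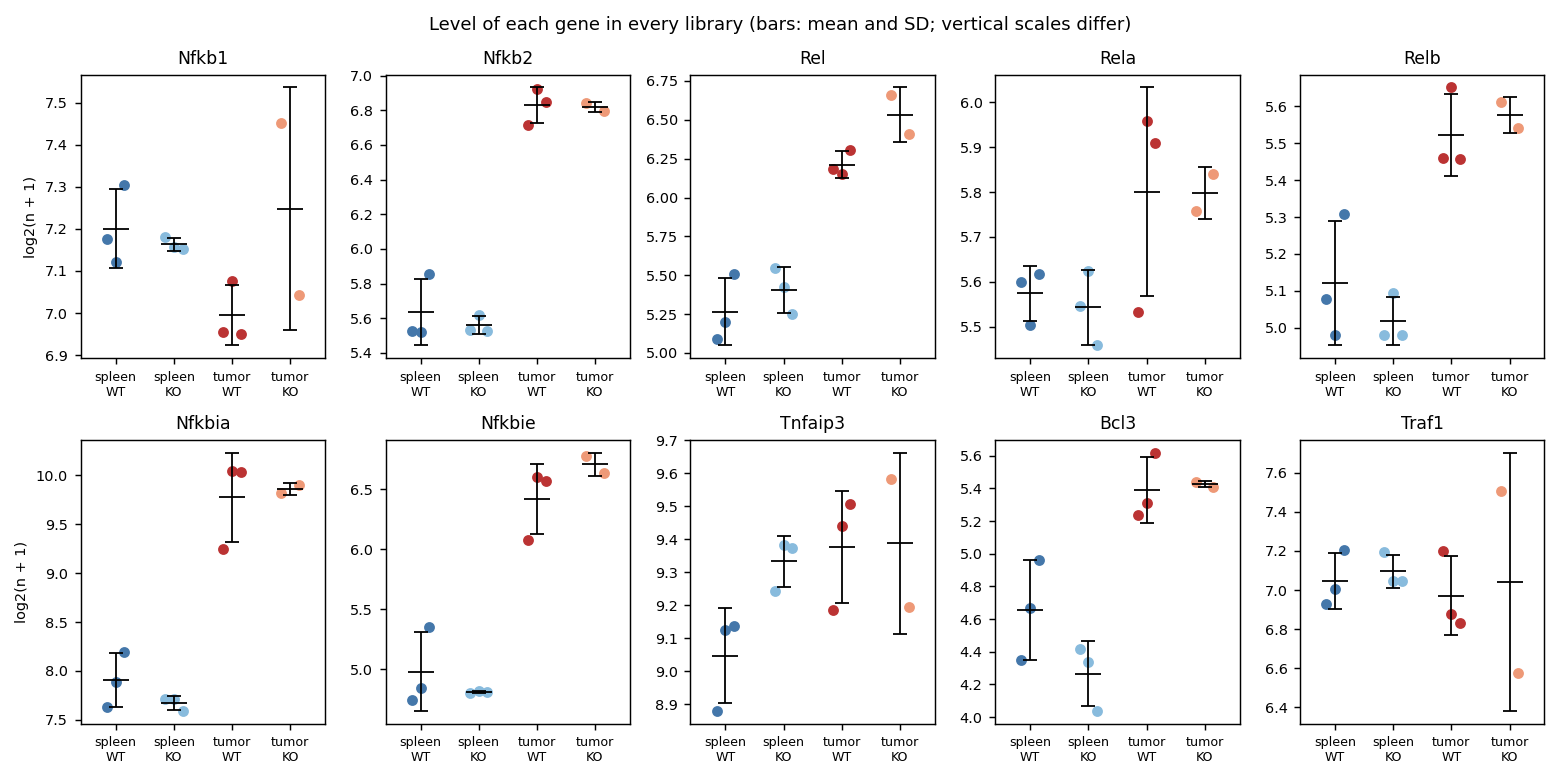
Level of each of the 10 members in every library, as log2(n + 1) on the vertical axis, with 1 point per library and the mean and SD as bars for spleen and tumor of WT and KO mice. For Nfkb2, Rel, Relb, Nfkbia, Nfkbie and Bcl3 the 5 tumor libraries lie above the 6 spleen libraries, while for Nfkb1, Rela, Tnfaip3 and Traf1 the tissues overlap.

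Among the subunits, Nfkb2 (GRCm38, chr19:46304320-46312385) had the difference with the smallest error. Its values were 5.53, 5.52 and 5.86 in WT spleen, 5.53, 5.62 and 5.52 in KO spleen, 6.72, 6.92 and 6.85 in WT tumor and 6.84 and 6.80 in KO tumor. The tissues were separated by a gap wider than the range within either of them. The tumor mean of 6.82 ± 0.08 (SD, n = 5) exceeded the spleen mean of 5.60 ± 0.13 (SD, n = 6) by 1.23 ± 0.07 (SE; limma, adjusted p = 5.13e-09). Exons of Nfkb2 overlap those of Psd and AC114539.1 on the opposite strand, and use of strand in the counting is not stated, so reads shared with these genes would be counted uncertainly.

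Nfkb1 (chr3:135584655-135691547), which encodes the other precursor, behaved otherwise. It lay between 7.12 and 7.31 in the 6 spleen libraries, with a median of 7.17. In tumor it was 6.95, 7.08 and 6.95 in WT and 7.45 and 7.04 in KO. KO tumor replicate 1 was the highest of all 11 libraries, and the other 4 tumor libraries were below every spleen library. The difference was -0.087 ± 0.085 (SE; 95% interval -0.27 to 0.097; limma adjusted p = 0.36) and did not pass. Without KO tumor replicate 1, it was -0.18 and passed (limma adjusted p = 0.011). With all libraries kept, Nfkb1 passed as lower after median centring (-0.30), equal library totals (-0.71) and quantile normalization (-0.76), and as higher after centring on the T-cell lineage genes (0.69), with limma adjusted p from 1.99e-06 to 0.0085.

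Rel (chr11:23736847-23770970), which encodes c-Rel, had spleen values of 5.09, 5.20 and 5.51 in WT and 5.55, 5.42 and 5.25 in KO. In tumor it was 6.18, 6.15 and 6.31 in WT and 6.66 and 6.41 in KO. The lowest tumor library was thus 0.60 above the highest spleen library, with the KO libraries the upper ones in tumor. The means were 6.34 ± 0.20 (SD, n = 5) and 5.34 ± 0.18 (SD, n = 6), a difference of 1.004 ± 0.11 (SE; limma, adjusted p = 1.90e-06).

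Relb (chr7:19606217-19629438) and Rela (chr19:5637483-5648130) differed less. Relb, the usual partner of p52, ranged from 4.98 to 5.31 in spleen (median 5.03), and in tumor was 5.46, 5.65 and 5.46 in WT and 5.61 and 5.54 in KO. The tissues did not overlap, with WT spleen replicate 3 the closest spleen library to the tumor libraries. The difference was 0.47 ± 0.07 (SE; limma, adjusted p = 5.04e-05), but was -0.14 after equal library totals. Rela ranged from 5.46 to 5.62 in spleen, and in tumor was 5.53, 5.96 and 5.91 in WT and 5.76 and 5.84 in KO. WT tumor replicate 1 fell inside the spleen range, and the other 4 tumor libraries lay above it. Rela differed by 0.24 ± 0.08 (SE; limma, adjusted p = 0.011), by 0.023 after median centring, where it did not pass, and by -0.37 after equal library totals.

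Of the inhibitors, Nfkbia (chr12:55489410-55492647) showed the greatest difference of the 10 members. It was 7.63, 7.89 and 8.19 in WT spleen and 7.72, 7.71 and 7.59 in KO spleen. In tumor it was 9.25, 10.04 and 10.03 in WT and 9.81 and 9.90 in KO. Every tumor library was more than 1 log2 unit above every spleen library, and WT tumor replicate 1 was the lowest of the tumor libraries. The means were 9.81 ± 0.33 (SD, n = 5) and 7.79 ± 0.22 (SD, n = 6), and the difference was 2.02 ± 0.15 (SE; 95% interval 1.70 to 2.34; limma adjusted p = 4.52e-08).

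Nfkbie (chr17:45555703-45563169), which encodes the related inhibitor IκBε, followed the same order of tissues. It was 4.74, 4.84 and 5.35 in WT spleen and 4.80, 4.82 and 4.81 in KO spleen. In tumor it was 6.08, 6.60 and 6.57 in WT and 6.77 and 6.64 in KO. WT spleen replicate 3 stood above the other 5 spleen libraries, which spanned only 0.10, and WT tumor replicate 1 was again the lowest in tumor. The difference was 1.64 ± 0.13 (SE; limma, adjusted p = 1.28e-07).

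Bcl3 (chr7:19808462-19822770) was the least even of these members in spleen. It was 4.35, 4.67 and 4.96 in WT and 4.42, 4.34 and 4.04 in KO spleen, and 5.24, 5.31 and 5.62 in WT and 5.44 and 5.41 in KO tumor. The tissues did not overlap, although the gap between them was smaller than the spread of the spleen libraries. The difference was 0.94 ± 0.14 (SE; limma, adjusted p = 3.52e-05). Bcl3 overlaps Gm16175 on the opposite strand, with the same limit as for Nfkb2.

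The feedback enzyme Tnfaip3 (chr10:19000910-19015657) did not pass in the pooled comparison. Its values were 8.88, 9.13 and 9.14 in WT spleen, 9.24, 9.38 and 9.37 in KO spleen, 9.19, 9.44 and 9.51 in WT tumor and 9.58 and 9.19 in KO tumor. The tissues overlapped, and the WT spleen libraries were the 3 lowest of the 11. The difference was 0.19 ± 0.11 (SE; 95% interval -0.037 to 0.42; limma adjusted p = 0.11), and it passed as lower with equal library totals (-0.44) and quantile normalization (-0.65) and as higher after centring on the T-cell lineage genes (0.97). Traf1 (chr2:34941750-34961772) ranged from 6.93 to 7.20 in spleen, and in tumor was 7.20, 6.88 and 6.83 in WT and 7.51 and 6.58 in KO. The highest and the lowest of all 11 libraries were thus the 2 KO tumor libraries. Its difference was -0.072 ± 0.14 (SE; 95% interval -0.37 to 0.22; limma adjusted p = 0.64). It passed as lower with equal library totals (-0.70) and quantile normalization (-0.73) and as higher after centring on the T-cell lineage genes (0.70).

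**Figure D2:**
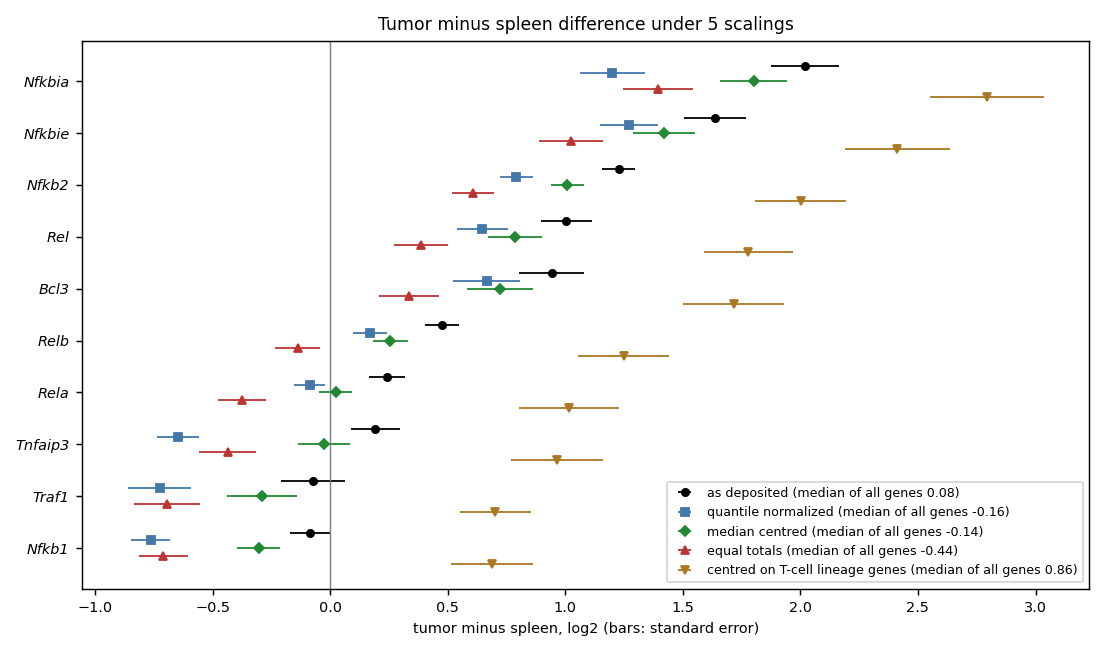
Tumor minus spleen difference of each member (log2, horizontal axis) as deposited and after each rescaling of the libraries, with bars of 1 standard error. Nfkbia, Nfkbie, Nfkb2 and Rel stay above 0 under each scaling, Relb falls below 0 with equal library totals, Rela with equal library totals and quantile normalization, and Nfkb1, Tnfaip3 and Traf1 fall on either side of 0.

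A ratio of 2 members within a library does not depend on how that library was scaled, apart from the added 1, so 7 such ratios were compared between tissues by an exact two-sided permutation test, whose smallest possible p with 5 and 6 libraries is 0.0043. Benjamini-Hochberg adjustment covered the 7 ratios, of which 6 had an adjusted p below 0.05. The share of other gene pairs that would pass was not computed. Since 78.9% of all single genes were called between the tissues, this count cannot be read as particular to the members. The level of Nfkb2 relative to Nfkb1 moved from -1.58 ± 0.08 over the spleen libraries to -0.27 ± 0.20 over the tumor libraries (SD, n = 6 and 5), a shift of 1.31 (exact p = 0.0043, adjusted p = 0.0076). Rel relative to Rela went from -0.22 ± 0.17 to 0.54 ± 0.27 (exact p = 0.0043, adjusted p = 0.0076). This ratio ranged from -0.51 to -0.00096 in spleen, where KO replicate 1 was at about 0, and from 0.19 to 0.90 in tumor.

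For Relb relative to Rela the shift was smaller, from -0.49 ± 0.09 to -0.26 ± 0.15, and the tissues overlapped (exact permutation p = 0.0087, adjusted p = 0.010). The inhibitor Nfkbia rose relative to Rela, from 2.23 ± 0.21 to 4.01 ± 0.17 (exact permutation p = 0.0043, adjusted p = 0.0076). The ratios also separated the feedback genes from each other. Tnfaip3 relative to Nfkbia fell from 1.40 ± 0.31 to -0.43 ± 0.27 (exact permutation p = 0.0043, adjusted p = 0.0076), and Nfkbie relative to Nfkbia fell from -2.89 ± 0.09 to -3.28 ± 0.18 (exact permutation p = 0.0087, adjusted p = 0.010). Traf1 relative to Nfkb1 was -0.11 ± 0.08 in spleen and -0.10 ± 0.27 in tumor (exact permutation p = 0.90). A ratio shows unequal change of a pair of transcripts, not which of them changed.

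**Figure D3:**
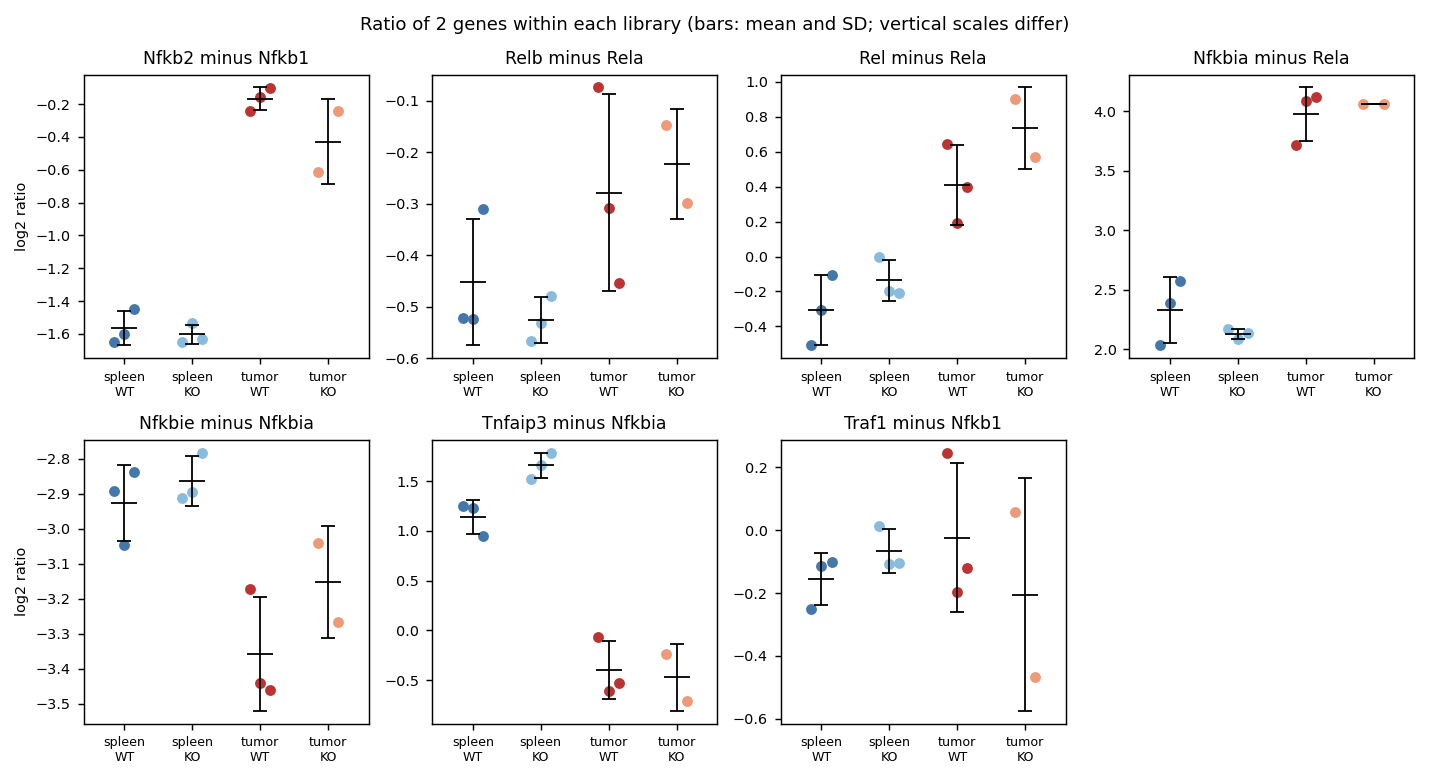
The 7 ratios between members in each library, as the difference of their log2(n + 1) values, with spleen and tumor libraries of WT and KO mice as points and the mean and SD as bars. Nfkb2 relative to Nfkb1 lies between -1.65 and -1.45 in spleen and between -0.61 and -0.10 in tumor, and Traf1 relative to Nfkb1 overlaps between the tissues.

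The same comparison was then made within each genotype. In WT mice 7 members were higher and 0 lower, against 39.2% and 31.3% of all genes (70.5% in either direction). In KO mice 6 were higher and 0 lower, against 36.2% and 29.5% (65.7% in either direction). Nfkb2 (1.19 in WT and 1.26 in KO on the log2 scale), Rel (0.95 and 1.13), Relb (0.40 and 0.56), Nfkbia (1.87 and 2.18), Nfkbie (1.44 and 1.90) and Bcl3 (0.73 and 1.16) passed in both, with Relb of the opposite sign in both after equal library totals. Relb also lost its call in WT with median centring (0.17) and quantile normalization (0.091) and in KO with quantile normalization (0.26), and Bcl3 lost its call in WT with equal library totals (0.14). Rela, at 0.23 in WT and 0.25 in KO, passed in neither (limma adjusted p = 0.093 and 0.096).

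Tnfaip3 passed in WT alone, at 0.33 (limma adjusted p = 0.040) against 0.055 in KO (limma adjusted p = 0.75). That WT call was lost without any 1 of 7 libraries, the 3 of KO spleen, WT spleen replicates 1 and 2 and WT tumor replicates 2 and 3 (limma adjusted p = 0.050 to 0.14), and the sign turned with equal library totals and quantile normalization. Nfkb1 was -0.21 in WT and 0.084 in KO and passed in neither. Without KO tumor replicate 1, Nfkb1 passed as lower in WT (limma adjusted p = 0.030) and Traf1 as lower in KO (-0.52; limma adjusted p = 0.019), and without KO tumor replicate 2, Nfkb1 passed as higher in KO at 0.29 (limma adjusted p = 0.042) and as lower in WT (limma adjusted p = 0.030). Leaving out either KO tumor library left a single one, which was assumed to vary like the other groups. Without WT tumor replicate 1, Rela passed in both genotypes, at 0.36 and 0.25 (limma adjusted p = 0.0037 and 0.023).

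Whether the tissue difference itself depended on genotype was tested as an interaction. Estimates for the members, KO minus WT, ran from -0.27 for Tnfaip3 to 0.46 for Nfkbie, and 0 of 10 passed. Over all genes 0 passed (0%), with 2.76% at an unadjusted p below 0.05 and 0 of the 10 members among them. Nfkb1 had the smallest unadjusted p of the members, with an estimate of 0.29 (95% interval -0.054 to 0.64; limma adjusted p = 0.9997). With 2 KO tumor libraries these intervals were wide, and that of Nfkbie ran from -0.11 to 1.03.

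KO and WT libraries were also compared within each tissue. In spleen, 0 of the 10 members and 0 of all genes passed in limma (0%), with 2.02% of all genes at an unadjusted p below 0.05. Bcl3 had the smallest unadjusted p of the members, at 4.27 ± 0.20 in KO and 4.66 ± 0.31 in WT (SD, n = 3 each), a difference of -0.39 (95% interval -0.76 to -0.028; limma adjusted p = 0.9997). Tnfaip3 was 9.33 ± 0.08 in KO and 9.05 ± 0.14 in WT spleen (SD, n = 3 each), and the 3 KO libraries lay above the 3 WT libraries, but the difference of 0.29 did not pass (limma adjusted p = 0.9997). In tumor, 0 of the 10 members and 1 of all genes (0.0072%) passed, with 4.56% of all genes at an unadjusted p below 0.05. Rel was 6.53 ± 0.18 (SD, n = 2) in KO and 6.21 ± 0.08 (SD, n = 3) in WT tumor, without overlap, and the difference of 0.32 did not pass (95% interval 0.0091 to 0.63; limma adjusted p = 0.9997). The other members differed between -0.0090 for Nfkb2 and 0.29 for Nfkbie in tumor. Nfkbie also did not overlap there, at 6.64 and 6.77 in KO and at most 6.60 in WT. The share of all genes without overlap between the genotypes was not counted, and groups this small can separate by chance. Every group mean of Nfkb2, Rel, Relb, Nfkbia, Nfkbie and Bcl3 was thus ordered by tissue first, while the neighbouring KO and WT means in each tissue did not differ beyond the test.

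**Figure D4:**
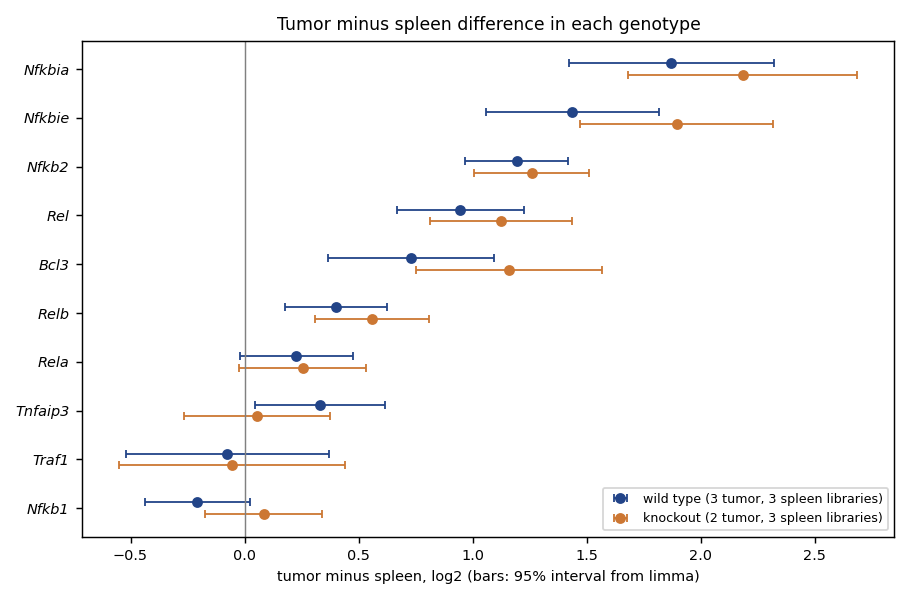
Tumor minus spleen difference of each member (log2, horizontal axis) in WT (3 tumor and 3 spleen libraries) and KO (2 tumor and 3 spleen libraries), with 95% intervals from limma. The intervals of the 2 genotypes overlap for each member, and those of Nfkbia, Nfkbie, Nfkb2, Rel, Bcl3 and Relb lie above 0 in both.

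The libraries within a tissue also differed from each other across members. WT spleen replicate 3 was the highest spleen library for 7 of the 10 members, and it had the largest total n in spleen (844331). For 22 textbook NF-κB targets it was the highest for 7, as was KO spleen replicate 2. WT tumor replicate 1 was the lowest tumor library for 6 of the 10 members and for 15 of the 22 targets, which included Il1b (8.43 against 10.60 or more in the other 4) and Tnf (5.73 against 7.75 or more). It was also the lowest for 13 of 18 myeloid markers, and it had the highest summed n of T-cell lineage genes in tumor, 4118 against 2255 to 3467. KO tumor replicate 1 was the highest tumor library for 5 of the 10 members, among them Nfkb1, Rel and Traf1. Together with KO spleen replicate 2, it was the highest of its tissue in summed B-cell markers. KO tumor replicate 2 was close to it, at 72.5 against 77.6, with 27.8 to 48.5 in the WT tumor libraries. Without KO tumor replicate 1 and KO spleen replicate 2, 7 members were higher and 1, Nfkb1, was lower. For what share of all genes each library was the highest or lowest of its tissue was not counted. Whether these counts are particular to the members is therefore not known. Whether these differences between libraries had a part in the values of the members was not tested.

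Genes around the members were taken as lists by role. Over 7 lists with 73 genes, each counted once and none of them a member, 36 (49.3%) were higher and 23 (31.5%) lower in tumor, close to the background of 43.1% and 35.9%, with a median of 0.17. Of 6 other IκB proteins and Rel cofactors, 4 were higher and 1 lower (median 0.87), and the inhibitor family members Nfkbiz (1.57), Nfkbid (1.46) and Nfkbib (1.34) rose most. Pdcd11 was lower at -0.46, but higher by 0.31 after centring on the T-cell lineage genes. Under that centring 5 of the 6 were higher.

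Of 6 genes of the IKK complex and its relatives, 1 was higher and 4 lower (median -0.60), with Ikbke at -2.27, Ikbkb, the catalytic IKKβ, at -1.08 and Chuk, the catalytic IKKα, at -0.81. Ikbkg, the regulatory subunit NEMO, was 0.24 higher, but -0.36 after equal library totals and about 0 with quantile normalization. The median of this list turned to 0.18 after centring on the T-cell lineage genes, where 2 were higher and 1 lower. In the route from the antigen receptor to IKK, 4 of 6 genes were lower and 2 higher (median -0.77). Prkcq, the protein kinase C theta of T cells, was at -2.79 and the costimulatory receptor Cd28 at -1.12, while Bcl10 and Malt1, which act together downstream of the receptor, were higher by 0.92 and 0.85. After centring on the T-cell lineage genes the median of this list was 0.0016, with 2 higher and 2 lower.

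The noncanonical pathway leads from a few receptors through NIK and IKKα to the processing of p100, the product of Nfkb2. Of 9 genes, 3 were higher and 2 lower (median 0.11). The 3 higher genes were all receptors, Ltbr (4.09), Cd40 (3.31) and Tnfrsf11a (2.49), while the receptor Tnfrsf13c was lower at -0.85. The kinase NIK, encoded by Map3k14, was at 0.12 ± 0.14 (SE) and its inhibitor Traf3 at -0.014 ± 0.079 (SE), and neither passed (limma adjusted p = 0.46 and 0.88). Traf2 was lower at -0.39, but 0.39 after centring on the T-cell lineage genes. The median turned to -0.51 with equal library totals, where 3 were higher and 6 lower.

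Of 13 adaptors and receptors of TNF and Toll signaling, 5 were higher and 6 lower (median -0.12, and 0.65 after centring on the T-cell lineage genes). The TNF receptors Tnfrsf1b (2.07) and Tnfrsf1a (2.06) rose most, and Traf5 fell most (-1.80). Of 13 genes of ubiquitin editing and linear ubiquitin, 5 were higher and 6 lower (median -0.20, and 0.57 after that centring), with Tnip3 at 4.80, Rnf11 at 1.30 and Zc3h12a at 0.72 above and Rbck1, a subunit of the linear ubiquitin ligase, at -0.86. Of 22 listed textbook targets of NF-κB, 17 were higher and 0 lower (median 2.44). The largest rises were those of Il1b (8.95), Cxcl2 (8.18) and Ptgs2 (8.09), which encode an inflammatory cytokine, a neutrophil chemokine and cyclooxygenase-2, all known as products of myeloid cells, and the targets Cflar, Birc3, Irf4, Il2ra and Myc did not pass. With equal library totals and with quantile normalization 15 of the targets were higher and 4 lower.

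**Figure D5:**
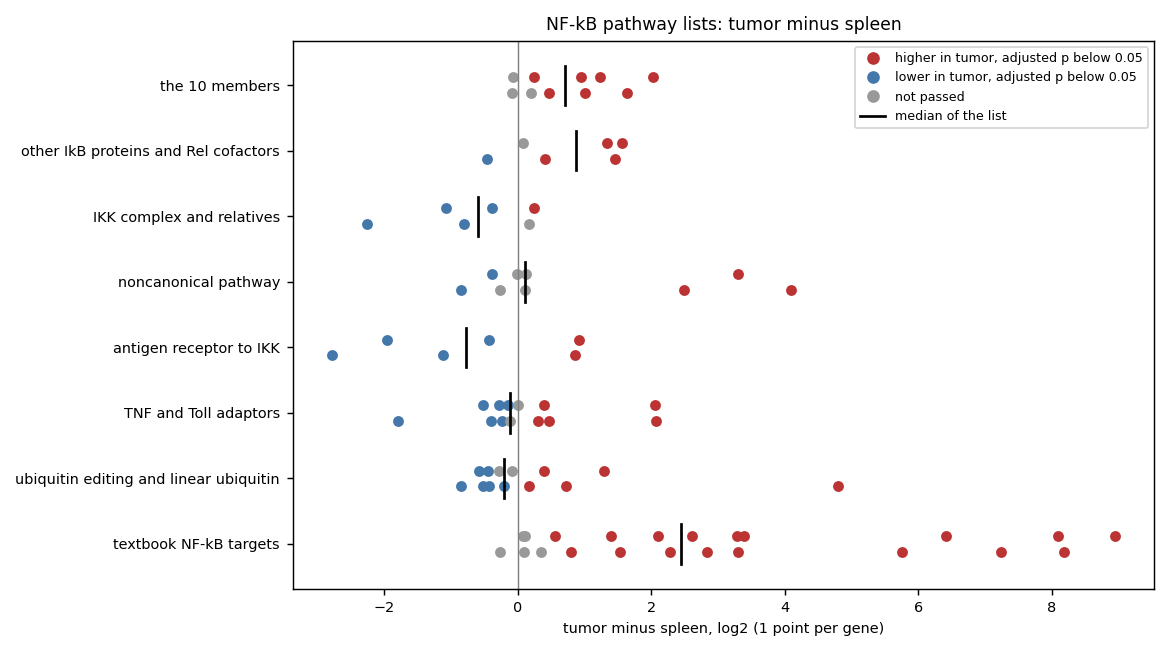
Tumor minus spleen difference (log2, horizontal axis) of each gene in the members and in 7 pathway lists, as deposited, with 1 point per gene colored by its call and a bar at the median of the list. The textbook targets have the highest median (2.44) and the antigen receptor list the lowest (-0.77), which turned to 0.0016 after centring on the T-cell lineage genes.

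For 4 members, the tested genes whose profile over the 11 libraries was most like theirs were found by the root mean square difference of the values after each gene was centred on its mean. Nfkb2, whose own root mean square deviation was 0.62, was nearest to Tgfb1 (0.065), Ufc1 (0.071) and Ubb (0.081). Rel (0.53) was nearest to Sptssa (0.11), Fam49b (0.11) and Rfk (0.11). Nfkb1 (0.14) was nearest to Sppl3 (0.092), Ppp4r2 (0.098) and Kpna4 (0.099), and Traf1 (0.23) to Arl4a (0.096), Stat5a (0.11) and Crbn (0.12). Relative to their own deviation, Nfkb1 and Traf1 thus had less close neighbours than Nfkb2 and Rel, whose profiles mostly reflected the difference between the tissues.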

How the data were processed

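RNA-seq values of sorted Tregs were available for 11 libraries, and the labels gave the tissue and genotype of each. Ribosomal RNA had been depleted. Per the methods, the authors used kallisto to pseudoalign 75-base single reads against mm10, and sleuth 0.30.0 to turn the estimated counts into 1 value per gene symbol, deposited as log2(n + 1). Neither the version of kallisto nor the annotation release is given in the sources used here. Without counts no count model was fitted, and precision rests on the spread between libraries.

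The deposited log2 values were taken as they stand. A mean of at least 0.5 was required (13897 of 14604 genes; 707 removed). limma 3.58.1 in R 4.3.3, with eBayes and a mean-variance trend, was fitted to the 5 tumor and 6 spleen libraries. A further model with 1 mean per tissue and genotype gave the contrasts within genotype, their interaction, and KO against WT. Adjusted p-values below 0.05 (Benjamini-Hochberg, all genes tested) were calls. The fit was run on simulated data with independent noise, in which a small part of the genes was changed by known amounts. The simulation held no difference in scaling or cell content between tissues, so it could not test for their effects. Ratios were tested by exact permutation (scipy 1.17.1). Fold changes are on the log2(value + 1) scale and understate the change of low genes.

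The members and lists were chosen with earlier results of these data known. All 10 members were described in full, with up to 3 genes per direction of each pathway list by size of difference, and the 3 genes nearest in profile to Nfkb1, Nfkb2, Rel and Traf1. Among the list genes, Dcn, Lum, Pdgfra, Col6a1, Pax5, Il6 and Cxcl1 have no row in the table. Single values of a few list genes are not reported here. Of 8 genes of Treg identity and of the sort, 2 were higher and 5 lower in tumor (median -0.52). Positions came from GENCODE M21 on GRCm38 and promoters from RefSeq on GRCm38.p6. Alternatives changed the scaling, pseudocount, trend, filter, correction, covariates, replicate block and libraries.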

Additional observations from a re-analysis of the deposited data

Results flagged for a closer look

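The 10 members, the 7 ratios and the 6 summed marker lists, each in both tissues, gave 46 sets of values. In 9 of them 1 library stood apart from the others of its tissue by Dixon's test, where chance gives about 1 in 20 for a single set. The sets were not independent, since the ratios are built from the members and several flags fall in the same library. The 9 flags are therefore not evidence of an excess over that rate. In WT spleen replicate 3, Nfkb1 was 7.305 (7.12 to 7.18 in the other 5), Nfkb2 5.857 (5.52 to 5.62), Relb 5.308 (4.98 to 5.09) and Nfkbie 5.352 (4.74 to 4.84), and Relb relative to Rela was -0.3096 (-0.57 to -0.48). In KO tumor replicate 1, Nfkb1 was 7.452 (6.95 to 7.08 in the other 4) and Nfkb2 relative to Nfkb1 was -0.6131 (-0.25 to -0.10). In WT tumor replicate 1, Nfkbia was 9.25 (9.81 to 10.04) and Nfkbia relative to Rela was 3.717 (4.06 to 4.12). The cause of these deviations was not tested.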

How the results depend on the processing

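In the pooled comparison of tissues, 4 of the 10 members, Nfkb2 (0.61 to 2.001 on the log2 scale), Nfkbia (1.20 to 2.79), Nfkbie (1.02 to 2.41) and Rel (0.39 to 1.78), kept their direction and their call under all 25 alternatives, and the 6 called ratios under all 13. Bcl3 kept its direction under all 25 (0.33 to 1.72) and lost its call with Bonferroni correction alone. The direction of the other 5 members turned under at least 1 scaling. With equal library totals, Rela was -0.37 pooled, -0.37 in WT and -0.37 in KO, Relb -0.14, -0.20 and -0.064, Tnfaip3 -0.44, -0.28 and -0.58, and Nfkb1 in KO -0.55. Equal totals without Gm12896 were an alternative chosen after seeing the data. That symbol held 31.4% to 42.4% of n in a spleen library and 31.4% to 41.3% in a tumor library. With Gm12896 left out of the totals, Rela was -0.37, Relb -0.13 and Tnfaip3 -0.43. With quantile normalization, Rela was -0.088 pooled, -0.11 in WT and -0.063 in KO, Tnfaip3 -0.65, -0.56 and -0.73, and Nfkb1 in KO -0.60. With median centring, Rela in WT was -0.0024, Tnfaip3 -0.027 pooled and -0.15 in KO, and Nfkb1 in KO -0.12. Centring on the T-cell lineage genes gave Nfkb1 0.69 pooled and 0.60 in WT, and Traf1 0.70 pooled, 0.73 in WT and 0.68 in KO. The cause was not tested.

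Called members in the pooled comparison were 4 higher with Bonferroni correction, 4 lower with equal library totals (4 without Gm12896), 3 lower with quantile normalization and 1 lower with median centring. In WT they were 2 higher with Bonferroni correction, 4 higher and 3 lower with equal totals, 3 lower with quantile normalization and 1 lower with median centring. In KO they were 3 higher with Bonferroni correction, 10 higher with T-cell lineage centring, and 3 lower with equal totals and with quantile normalization. T-cell lineage centring was not particular to KO in this, with 10 members higher pooled and 9 in WT. With equal totals, Nfkb2, Rel, Nfkbia, Nfkbie and Bcl3 alone stayed called as higher in the pooled comparison. Over all genes, the share of calls that were higher was 54.5% as deposited, 42.1% with quantile normalization, 43.7% with median centring, 29.6% with equal totals, 30.1% with equal totals without Gm12896 and 89.1% with T-cell lineage centring. Bonferroni correction left 5051 of the 10971 calls.

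Leaving out each library in turn gave 7 members higher and 0 to 1 lower pooled, 6 to 8 higher and 0 to 1 lower in WT, and 6 to 7 higher and 0 to 1 lower in KO. Single values that turned lay between -0.12 and 0.29 for Nfkb1 in KO, -0.14 and 0.25 for Tnfaip3 in KO, -0.20 and 0.034 for Traf1 pooled, -0.19 and 0.0042 for Traf1 in WT, -0.52 and 0.41 for Traf1 in KO, and -0.071 and 0.11 for Traf1 relative to Nfkb1. Leaving out KO tumor replicate 1 and KO spleen replicate 2 together, chosen after seeing the data, left 1 member lower. No member passed in the interaction or the genotype comparisons under any of their 22 alternatives.

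The labels do not say that a replicate number marks 1 mouse. Deviations of the 5 same-numbered spleen and tumor pairs correlated over genes at -0.13, 0.0070, -0.072, 0.019 and 0.038, which gave no ground to pair them and does not show that they came from different mice. The 2 KO tumor deviations mirror each other by construction. With the replicate block the pooled calls were 7 members higher and 0 lower, as without it, and Tnfaip3 in WT no longer passed (0.33; limma adjusted p = 0.062). Depth limits could not be given, since the scaling of n is not stated.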
